A study of Mus musculus with 2 samples.

Results

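Slc47a1-positive meningeal border cells were selected on transcripts of 4 genes in 2 single-cell libraries of sorted adult mouse brain cells. A droplet barcode was kept as a cell when it held at least 1000 unique molecular identifiers (UMIs, each standing for 1 captured transcript) from at least 500 genes, with at most 15% of UMIs from mitochondrial genes. A kept barcode was taken as a border cell when Slc47a1, Slc26a7, Igfbp6 and Ccn3 together held 8 or more UMIs. In addition, Ttr had to hold under 2% of UMIs and 6 endothelial genes (Cldn5, Flt1, Abcb1a, Slco1a4, Cdh5 and Pecam1) together under 0.3%. The rule found 84 of 1175 kept barcodes in the IL34LacZ/LacZ library and 95 of 1668 in the IL34LacZ/+ library, 179 of 2843 in all. In the GRCm38 annotation Slc47a1 lies at chr11:61343401-61378345 and Slc26a7 at chr4:14502430-14621805, both on the minus strand. Igfbp6 lies at chr15:102144362-102149511 and Ccn3 at chr15:54745702-54754039, both on the plus strand. Because these UMI counts chose the cells, the levels of the 4 genes, the low levels of Ttr and the 6 endothelial genes, and every contrast of these cells with the other barcodes, are given as descriptions.

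The brain is wrapped in the meninges, a layered sheath of fibroblasts and barrier cells. The outer dura holds leaky vessels, and the arachnoid beneath it carries a cell layer sealed by tight junctions and E-cadherin that separates dural fluid from cerebrospinal fluid. The pia lies on the brain itself, and fibroblasts continuous with it follow the larger vessels inward. Slc47a1 encodes MATE1, an exporter of organic cations, Slc26a7 an anion transporter, Igfbp6 a binding protein for insulin-like growth factors and Ccn3 a secreted matricellular protein.

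Both libraries were made with droplet 3′ chemistry from cells of whole brains, sorted for astrocytes and endothelial cells, 1 library per genotype. In IL34LacZ/LacZ mice, the knockout of the design text, both alleles of Il34 carry LacZ, and Il34 encodes a ligand of the macrophage receptor CSF1R. IL34LacZ/+ mice, used as wild type in the design text, carry 1 such allele, so neither library is free of the LacZ allele. The sort markers, the number, sex and exact age of the mice and the place of LacZ in the gene are not given here. With 1 library per genotype there is no replicate error and no p-value, and genotype cannot be told apart from animal, sort or library. All intervals are exact 95% intervals that cover counting error only. The libraries are written LacZ/LacZ and LacZ/+ from here on.

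The matrices held 36696941 UMIs over 5400 barcodes (LacZ/LacZ) and 26679053 UMIs over 3901 barcodes (LacZ/+), of which 8 barcodes occurred in both libraries and 0 of these were border cells. Kept barcodes had a median of 10429 UMIs (LacZ/LacZ) and 8098.5 UMIs (LacZ/+). Il34 tags could not check the genotype labels. In pericyte-like barcodes Il34 had 141 UMIs in the LacZ/LacZ library, or 481 CPM, against 64 UMIs or 375 CPM in the LacZ/+ library. CPM are the UMIs of a gene per 1000000 UMIs of all genes, summed over the cells of a class in a library. Border cells themselves held 0 Il34 UMIs in the LacZ/LacZ library, where 3 UMIs would be 2.18 CPM, against 8 UMIs in 8 cells in the LacZ/+ library (5.42 CPM, interval 2.34 to 10.7). Genotypes below are therefore those of the labels.

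The border cells were deeply covered, with 1377819 UMIs in the LacZ/LacZ library (1169 to 34615 per cell, median 15902.5, median 4610 genes). In the LacZ/+ library they held 1476202 UMIs (3218 to 31643 per cell, median 14406, median 4451 genes). They made up 7.15% of kept barcodes in the LacZ/LacZ library (5.74 to 8.77) and 5.70% in the LacZ/+ library (4.63 to 6.92), 2 overlapping intervals. Such shares depend on the sort gate and on the mitochondrial limit, which left out 17 (LacZ/LacZ) and 16 (LacZ/+) further barcodes with 8 or more UMIs of the 4 genes. The border cells kept had 9.49% mitochondrial UMIs in the LacZ/LacZ library and 7.14% in the LacZ/+ library.

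Few kept barcodes had 4-gene counts near the threshold, which describes the same count that chose the cells. Border cells held 10 to 238 UMIs of the 4 genes (median 96.5) in the LacZ/LacZ library and 10 to 246 (median 109) in the LacZ/+ library. Just outside, among barcodes within the limits on Ttr and endothelial genes, 2 (LacZ/LacZ) and 4 (LacZ/+) held 4 to 7 UMIs, the highest of them 6 in each library, and 24 (LacZ/LacZ) and 27 (LacZ/+) held 1 to 3. Over all kept barcodes the highest count below the threshold was 7 (LacZ/LacZ) and 6 (LacZ/+). Those limits refused 0 LacZ/LacZ barcodes and 1 LacZ/+ barcode that had enough UMIs. All 4 genes were detected together in 74 of 84 LacZ/LacZ cells and 84 of 95 LacZ/+ cells, which describes genes the rule used.

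**Figure D1:**
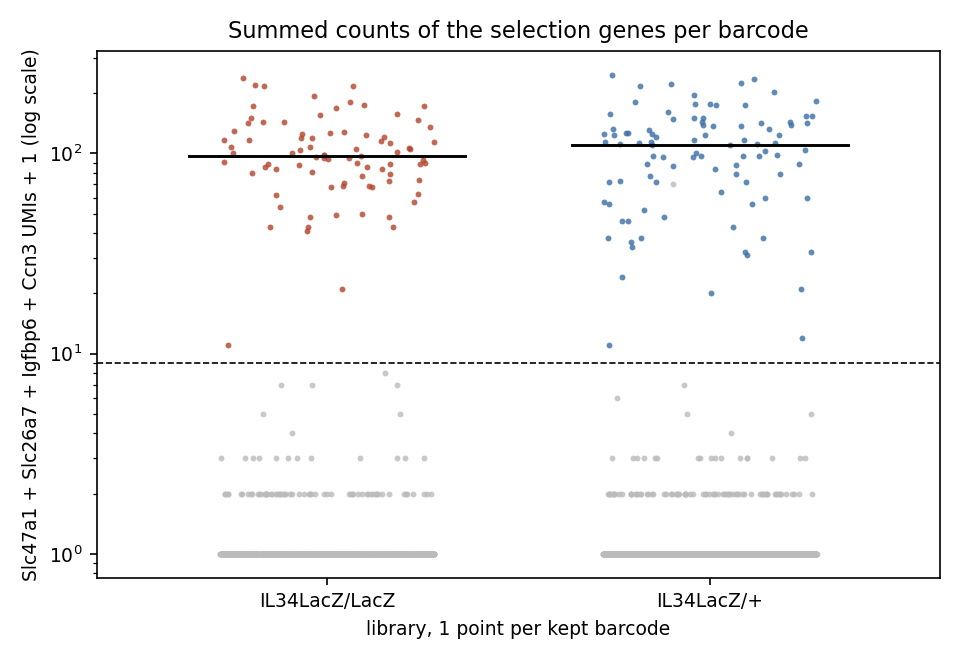
Summed UMIs of Slc47a1, Slc26a7, Igfbp6 and Ccn3 per kept barcode, plus 1, on a log axis, with 1 point per barcode and the IL34LacZ/LacZ library left of the IL34LacZ/+ library. Coloured points are the 84 and 95 border cells and grey points all others, the dashed line is the threshold of 8 UMIs, and the black lines are the border cells' medians of 96.5 and 109 UMIs. The 1 grey point above the line is the IL34LacZ/+ barcode refused by the limits on Ttr and endothelial genes.

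Slc47a1, 1 of the 4 genes that chose the cells, was present in 84 of 84 LacZ/LacZ and 94 of 95 LacZ/+ border cells, with 2055 CPM in the LacZ/LacZ library and 2092 CPM in the LacZ/+ library. Single LacZ/LacZ cells ran from 790 to 5834 CPM (median 2140) and LacZ/+ cells from 0 to 8399 CPM (median 1908). Ccn3 had no UMI in 9 of 84 LacZ/LacZ cells and 7 of 95 LacZ/+ cells and up to 8928 CPM (LacZ/LacZ) and 8817 CPM (LacZ/+) in the highest cell. Bnc2, a zinc finger transcription factor that the rule did not use, had 1593 CPM in LacZ/LacZ and 1784 CPM in LacZ/+ border cells. Bnc2 UMIs were found in 84 of 84 LacZ/LacZ and 91 of 95 LacZ/+ border cells. In endothelial-like barcodes, with medians of 4848 UMIs (LacZ/LacZ) and 4376.5 UMIs (LacZ/+), Bnc2 was seen in 0.330% (LacZ/LacZ) and 0.755% (LacZ/+). With every barcode thinned to 2000 UMIs, Bnc2 was found in 88.0% (LacZ/LacZ) and 88.4% (LacZ/+) of border cells, against 0% (LacZ/LacZ) and 0.417% (LacZ/+) of endothelial-like barcodes.

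Most markers of other cell types were low, in part through the rule's own limits on Ttr and endothelial genes. Against all other kept barcodes, 8175 genes could be measured, and a gene was called when it lay over 2-fold the same way in both libraries. Of these, 14.8% were higher and 16.7% lower in the border cells, a contrast the rule itself drew on and that supports nothing here. All 7 oligodendrocyte markers and all 7 choroid plexus markers were over 2-fold lower, as were the 4 measurable pericyte markers of 7. The choroid plexus markers, Ttr among them, summed to 704 CPM (LacZ/LacZ) and 887 CPM (LacZ/+) in border cells, against 82125 CPM and 101812 CPM in the other barcodes of the same libraries. The 9 microglia and macrophage markers summed to 35.6 CPM (LacZ/LacZ) and 27.8 CPM (LacZ/+), with Mrc1 and Cd163 at 0 UMIs in both.

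The endothelial and astrocyte marker sums came from a few genes of each list, and the endothelial levels are bounded by the rule. Endothelial markers summed to 1036 CPM in LacZ/LacZ border cells (158 to 2504 per cell) and 1131 CPM in LacZ/+ border cells (0 to 3501 per cell). Most of it was Abcb1a (526 CPM LacZ/LacZ, 568 CPM LacZ/+), Itm2a (334 CPM LacZ/LacZ, 368 CPM LacZ/+) and Cdh5 (166 CPM LacZ/LacZ, 168 CPM LacZ/+). Cldn5, the tight junction protein of brain endothelium, stood at 5.08 CPM (LacZ/LacZ) and 4.06 CPM (LacZ/+), and Flt1, a VEGF receptor, at 0 CPM (LacZ/LacZ) and 12.9 CPM (LacZ/+). The astrocyte sum of 1650 CPM (LacZ/LacZ) and 2227 CPM (LacZ/+) came mainly from the gap junction gene Gja1 and the bicarbonate transporter Slc4a4. Aqp4, the astrocyte water channel, stood at 2.18 CPM (LacZ/LacZ) and 2.71 CPM (LacZ/+).

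Several membrane transporters were far higher in border cells than in the other barcodes. Slc47a2, which encodes MATE2 and is the tandem neighbour of Slc47a1, had 325 UMIs in LacZ/LacZ border cells (236 CPM) and 344 UMIs in LacZ/+ border cells (233 CPM). All other kept barcodes together held 1 Slc47a2 UMI (LacZ/LacZ) and 7 UMIs (LacZ/+), giving log2 ratios of 11.55 (9.06 to 16.86) in the LacZ/LacZ library and 8.95 (7.89 to 10.27) in the LacZ/+ library. It was detected in 84.5% of LacZ/LacZ and 75.8% of LacZ/+ border cells, and in 33.7% (LacZ/LacZ) and 31.6% (LacZ/+) after thinning to 2000 UMIs. Endothelial-like barcodes had a UMI of it in 0 of 303 (LacZ/LacZ), which allows a share of barcodes with a UMI of up to 0.990% by a floor of 3 barcodes and up to 1.21% by the exact interval, and in 0.377% (LacZ/+). Slc47a2 lies at chr11:61301631-61342860, on the same strand as Slc47a1, with 540 bases between the 3′ end of Slc47a1 and the start of Slc47a2. The files do not show whether reads that run on from one gene, or match both paralogs, were counted to the other, so the Slc47a2 level is uncertain to that extent.

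Since Slc47a2 was counted almost solely in border cells and starts beside the gene that defined them, its promoter is shown. The 250 bases before its start (chr11:61342861-61343110, minus strand, RefSeq, GRCm38.p6) hold 2 copies of GGGCGG, the GC box bound by Sp1-type factors, which begin 25 and 8 bases before the start and are in capitals.
Slc47a2 promoter: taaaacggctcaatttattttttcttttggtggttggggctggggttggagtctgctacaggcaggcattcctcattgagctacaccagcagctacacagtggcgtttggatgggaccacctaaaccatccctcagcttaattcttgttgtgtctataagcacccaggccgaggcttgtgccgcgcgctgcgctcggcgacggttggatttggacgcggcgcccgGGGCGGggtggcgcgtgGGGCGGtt
GGGCGG was searched on both strands, a choice made after the sequence was seen. It occurred in 10756 of 32851 promoter windows of the same length (32.7%), and its presence is a description of this window.

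Other transporters with high levels in border cells moved bicarbonate, amino acids and sulfate. Slc4a10, a sodium-coupled bicarbonate transporter known from choroid plexus, had 3868 CPM in LacZ/LacZ and 4607 CPM in LacZ/+ border cells, against 312 CPM (LacZ/LacZ) and 265 CPM (LacZ/+) in choroid plexus-like barcodes. Slc38a2, a neutral amino acid transporter, had 5897 CPM (LacZ/LacZ) and 6823 CPM (LacZ/+), and lay 4.35 (LacZ/LacZ) and 4.62 (LacZ/+) above the other barcodes on the log2 scale. Slc26a2, a sulfate transporter, had 1265 CPM (LacZ/LacZ) and 885 CPM (LacZ/+), with log2 ratios of 7.23 (LacZ/LacZ) and 6.67 (LacZ/+). Slc23a2, a vitamin C transporter, had 1125 CPM (LacZ/LacZ) and 1078 CPM (LacZ/+). Of a list of 29 meningeal solute carriers, 25 could be measured, and 9 were higher and 13 lower than in the other barcodes, beside 14.8% and 16.7% over all measured genes. The list's median log2 ratio was −3.17 (LacZ/LacZ) and −2.29 (LacZ/+), against 0.084 (LacZ/LacZ) and 0.15 (LacZ/+) over all measured genes, so the list split in both directions.

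Efflux pumps of barrier tissues were present as well. Abcg2, the breast cancer resistance protein, had 592 CPM (LacZ/LacZ) and 593 CPM (LacZ/+), with log2 ratios over the other barcodes of 2.09 (LacZ/LacZ) and 1.63 (LacZ/+). Abcb1a, which encodes P-glycoprotein and is 1 of the 6 genes whose sum the rule limited, had log2 ratios of 1.19 (LacZ/LacZ) and 0.77 (LacZ/+), the second of them under 2-fold. Of 9 measurable organic cation and multidrug transporters, 3 were higher and 1 was lower, beside 14.8% higher and 16.7% lower over all measured genes. Slco2a1, the prostaglandin transporter, had 73.3 CPM (LacZ/LacZ) and 77.2 CPM (LacZ/+), with log2 ratios of 5.22 (LacZ/LacZ) and 5.07 (LacZ/+).

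**Figure D2:**
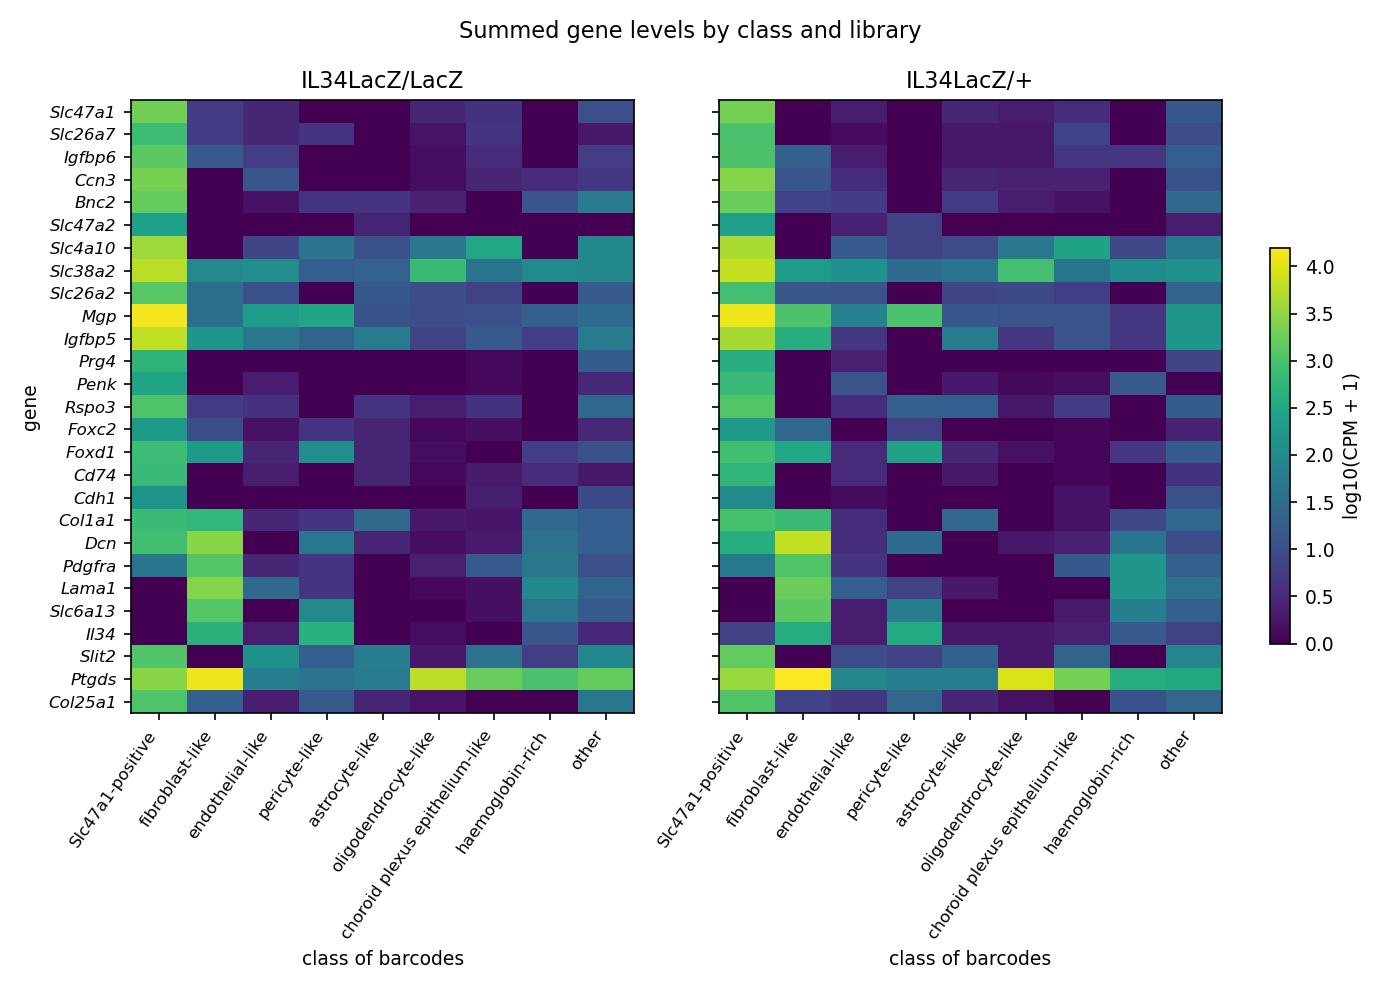
Levels of 27 genes, as log10 of CPM plus 1, in 9 barcode classes, with the IL34LacZ/LacZ panel left of the IL34LacZ/+ panel and border cells in the first column of each. Slc47a1 reads 2055 and 2092 CPM in border cells and under 13 CPM in every other class, while Slc4a10 is also present in choroid plexus-like barcodes at 312 and 265 CPM.

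The other genes ranked highest over the remaining barcodes were surface, secreted and regulatory genes. Tspan11, a tetraspanin, had 457 CPM (LacZ/LacZ) and 445 CPM (LacZ/+) in border cells, with log2 ratios of 10.92 (9.37 to 13.20, LacZ/LacZ) and 8.29 (7.67 to 8.996, LacZ/+). Adamtsl3, a matrix protein related to the ADAMTS proteases, had 969 CPM in each library, and Col25a1, a transmembrane collagen, had 1089 CPM (LacZ/LacZ) and 1135 CPM (LacZ/+). Tnfrsf11b, or osteoprotegerin, a decoy receptor that blocks bone resorption, had 237 CPM (LacZ/LacZ) and 261 CPM (LacZ/+). Agtr1b, an angiotensin II receptor, had 74.8 CPM (LacZ/LacZ) and 82.6 CPM (LacZ/+), against 2 UMIs (LacZ/LacZ) and 5 UMIs (LacZ/+) in all other barcodes. Its log2 ratios were 8.89 (7.005 to 11.96, LacZ/LacZ) and 7.94 (6.67 to 9.58, LacZ/+). Prdm6, a transcription factor of smooth muscle, had 262 CPM (LacZ/LacZ) and 369 CPM (LacZ/+). Mfap5, a protein of elastic microfibrils, had 165 CPM (LacZ/LacZ) and 131 CPM (LacZ/+) over all border cells. Its UMIs were found in 40.5% of LacZ/LacZ and 34.7% of LacZ/+ cells. After thinning, Mfap5 was found in 18.1% (LacZ/LacZ) and 12.6% (LacZ/+), and endothelial-like barcodes held 1 UMI (LacZ/LacZ) and 0 UMIs (LacZ/+).

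Secreted factors and matrix genes were abundant as well. Mgp, matrix Gla protein, an inhibitor of calcification, had 13902 CPM in LacZ/LacZ and 12326 CPM in LacZ/+ border cells, with log2 ratios over the other barcodes of 8.32 (LacZ/LacZ) and 7.54 (LacZ/+). Igfbp5, another binding protein for insulin-like growth factors, had 6333 CPM (LacZ/LacZ) and 4224 CPM (LacZ/+). Rspo3, which amplifies Wnt signals, had 1090 CPM (LacZ/LacZ) and 1191 CPM (LacZ/+) and was found in 98.8% (LacZ/LacZ) and 98.9% (LacZ/+) of border cells. After thinning, Rspo3 was found in 84.3% (LacZ/LacZ) and 86.3% (LacZ/+), and endothelial-like barcodes held 5 UMIs (LacZ/LacZ) and 7 UMIs (LacZ/+) of it. Penk, the precursor of the enkephalin opioid peptides, had 279 CPM (LacZ/LacZ) and 702 CPM (LacZ/+) over all border cells. Its UMIs were found in 43 of 84 LacZ/LacZ and 57 of 95 LacZ/+ cells. Prg4, or lubricin, a lubricating proteoglycan of joints, had 531 CPM (LacZ/LacZ) and 414 CPM (LacZ/+) over all border cells. Its UMIs were found in 54.8% of LacZ/LacZ and 53.7% of LacZ/+ cells. After thinning, Prg4 was found in 37.3% (LacZ/LacZ) and 33.7% (LacZ/+) of border cells, and endothelial-like barcodes held 0 UMIs (LacZ/LacZ) and 4 UMIs (LacZ/+). Of 17 measurable genes of fibrillar collagens and their matrix, 16 were higher and 0 lower than in the other barcodes, with medians of 4.82 (LacZ/LacZ) and 3.51 (LacZ/+). Over all measured genes the shares were 14.8% higher and 16.7% lower. Against the collagen-rich fibroblast-like barcodes defined below, 6 of 15 measurable genes of this list were higher, 0 lower and 9 neither. Their medians there were 0.61 (LacZ/LacZ) and 0.79 (LacZ/+), and 24.6% of all genes measured in that contrast were higher and 12.2% lower. Col1a1, a chain of collagen I, had 729 CPM (LacZ/LacZ) and 947 CPM (LacZ/+).

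Transcription factors of skull and meningeal mesenchyme were mostly higher in border cells than in the other barcodes. Foxd1 had UMIs in 98.8% of LacZ/LacZ and 97.9% of LacZ/+ cells, with 744 CPM (LacZ/LacZ) and 848 CPM (LacZ/+). After thinning, Foxd1 was found in 73.5% (LacZ/LacZ) and 71.6% (LacZ/+). All endothelial-like barcodes together held 3 UMIs (LacZ/LacZ) and 6 UMIs (LacZ/+) of it. Other mesenchymal classes also carried it, with 191 CPM (LacZ/LacZ) and 332 CPM (LacZ/+) in fibroblast-like barcodes. Pericyte-like barcodes had 119 CPM (LacZ/LacZ) and 258 CPM (LacZ/+) of Foxd1. Foxc1, needed for normal meninges in mice, had 344 CPM (LacZ/LacZ) and 292 CPM (LacZ/+), and its relative Foxc2 had 197 CPM (LacZ/LacZ) and 189 CPM (LacZ/+). The forkhead repressor Foxp2 had 1503 CPM (LacZ/LacZ) and 1836 CPM (LacZ/+), and the T-box factor Tbx15 had 395 CPM (LacZ/LacZ) and 597 CPM (LacZ/+). Eya2, a transcriptional coactivator, had log2 ratios over the other barcodes of 6.47 (LacZ/LacZ) and 6.65 (LacZ/+). Of 26 measurable factors in the list of 41, 20 were higher and 2 lower, with medians of 3.05 (LacZ/LacZ) and 2.94 (LacZ/+). The shares over all measured genes were 14.8% higher and 16.7% lower. Against fibroblast-like barcodes 9 of 22 measurable factors were higher and 4 lower, with medians of 0.74 (LacZ/LacZ) and 0.73 (LacZ/+). In that contrast 24.6% of all measured genes were higher and 12.2% lower. Bnc1, the paralog of Bnc2, had 0 UMIs in both libraries.

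Genes of BMP, retinoid and prostaglandin signalling were also measured. Of 24 measurable BMP and TGF-beta genes, 14 were higher and 0 lower, with medians of 1.85 (LacZ/LacZ) and 1.59 (LacZ/+). Over all measured genes 14.8% were higher and 16.7% lower than in the other barcodes, with medians of 0.084 (LacZ/LacZ) and 0.15 (LacZ/+). The ligand Bmp4 had 371 CPM (LacZ/LacZ) and 341 CPM (LacZ/+), and Id1, a target of BMP signalling, had 466 CPM (LacZ/LacZ) and 625 CPM (LacZ/+). Of 11 measurable retinoid genes, 9 were higher and 0 lower, beside the same shares over all measured genes. Against fibroblast-like barcodes 8 of 19 BMP and TGF-beta genes were higher and 2 lower. Of 8 retinoid genes measured there, 3 were higher and 2 lower, beside 24.6% higher and 12.2% lower over all genes of that contrast. Crabp2, which carries retinoic acid to its receptors, had 239.5 CPM (LacZ/LacZ) and 188 CPM (LacZ/+). Aldh1a2, which makes retinoic acid, had 0 UMIs in LacZ/LacZ and 2.71 CPM in LacZ/+ border cells. Ptgds, the prostaglandin D synthase typical of leptomeninges, had 2836 CPM (LacZ/LacZ) and 3578 CPM (LacZ/+), with log2 ratios over the other barcodes of −0.098 (LacZ/LacZ) and 0.19 (LacZ/+). Few cells carried this level of Ptgds, since 1 cell held 31.9% (LacZ/LacZ) and 34.2% (LacZ/+) of the UMIs, and the median border cell had 267 CPM (LacZ/LacZ) and 173 CPM (LacZ/+).

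Junction and keratin genes gave a mixed picture against the label of a barrier cell. Cdh1, or E-cadherin, which marks the arachnoid barrier layer, had 149.5 CPM (LacZ/LacZ) and 96.9 CPM (LacZ/+), and UMIs in 52.4% (LacZ/LacZ) and 46.3% (LacZ/+) of border cells. Thinned to 2000 UMIs these shares were 21.7% (LacZ/LacZ) and 11.6% (LacZ/+), and endothelial-like barcodes had a UMI in 0 of 303 (LacZ/LacZ, the same limits as above) and 0.189% (LacZ/+). Klf5, an epithelial transcription factor, had 226 CPM (LacZ/LacZ) and 207 CPM (LacZ/+). In contrast Krt8, an epithelial keratin, had 0 UMIs in both libraries, and Dpp4, a peptidase named as an arachnoid barrier marker, had 19.6 CPM (LacZ/LacZ) and 16.3 CPM (LacZ/+). Tjp1, a scaffold of tight junctions, lay below the other barcodes, with log2 ratios of −1.84 (LacZ/LacZ) and −2.24 (LacZ/+). Of 10 measurable arachnoid barrier genes in the list of 15, 3 were higher and 6 lower than in the other barcodes. Over all genes measured against the other barcodes, 14.8% were higher and 16.7% lower. Against collagen-rich fibroblast-like barcodes 5 of 6 measurable arachnoid barrier genes were higher and 1 lower, with medians of 3.26 (LacZ/LacZ) and 3.19 (LacZ/+), beside 24.6% higher and 12.2% lower over all genes measured there. Of the 7 dural fibroblast genes measurable against the other barcodes 5 were higher and 0 lower, Mgp, Fxyd5, Foxp1 and Smoc2 among them. Against fibroblast-like barcodes 4 of 6 were higher and 0 lower. Of 9 measurable arachnoid and pial fibroblast genes, 2 were higher and 3 lower than in the other barcodes. Against fibroblast-like barcodes 1 of 10 genes of that list was higher and 7 were lower, with medians of −2.27 (LacZ/LacZ) and −3.04 (LacZ/+). The values name these cells by their rule genes and do not place them in 1 meningeal layer, and their position in the brain is not recorded in the files.

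Border cells were also set beside the collagen-rich fibroblast-like barcodes, defined by Col1a1, Col1a2, Col3a1, Dcn and Lum at 0.2% or more of UMIs together. That limit was chosen after the data were seen, because the limit of 1% set earlier left 3 LacZ/LacZ and 4 LacZ/+ barcodes, and it gave 21 LacZ/LacZ and 18 LacZ/+ barcodes. Border cells were taken out first by the 4-gene rule, whatever their collagen level. Their own sum of these 5 genes plus Pdgfra was 2974 CPM (LacZ/LacZ) and 2918 CPM (LacZ/+), with cell medians of 1921 and 1944 CPM. The 0.2% limit therefore does not by itself set the 2 classes apart by collagen. Of 3148 genes measured, 774 (24.6%) were over 2-fold higher and 385 (12.2%) over 2-fold lower in border cells in both libraries. With the 1% limit the counts were 365 and 150, or 274 and 195 under median-of-ratios scaling. The median log2 ratio of all measured genes was 0.32 (LacZ/LacZ) and 0.27 (LacZ/+), so ratios near those values are level. The cells were chosen against all other barcodes, these included, so the counts are a description. The 2 classes also differed in depth and RNA content. Fibroblast-like barcodes had medians of 9910 UMIs (LacZ/LacZ) and 8575 UMIs (LacZ/+), with 0.980% (LacZ/LacZ) and 2.56% (LacZ/+) of UMIs from ribosomal protein genes, against 7.77% (LacZ/LacZ) and 7.99% (LacZ/+) in border cells. The part of this gap in the ratios was not tested.

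Most basement membrane genes were lower in border cells than in fibroblast-like barcodes. Col1a1 and Col1a2 helped define the fibroblast-like class, so their ratios depend on its limit. Col1a1 had log2 ratios of 0.28 (LacZ/LacZ) and 0.36 (LacZ/+), and Col1a2 0.079 (LacZ/LacZ) and 0.19 (LacZ/+). Lama1, a laminin chain of the pial basement membrane, had 0 UMIs in the border cells of either library, against 574 UMIs (LacZ/LacZ) and 287 UMIs (LacZ/+) in fibroblast-like barcodes. Set at the floor of 3 UMIs per library, its log2 ratio was −10.23 (LacZ/LacZ) and −9.74 (LacZ/+), with intervals up to −8.67 (LacZ/LacZ) and −8.17 (LacZ/+). Col15a1, a collagen of vessel basement membranes, had 1 UMI (LacZ/LacZ) and 2 UMIs (LacZ/+) in border cells, against 330 UMIs (LacZ/LacZ) and 184 UMIs (LacZ/+). Its log2 ratios were −11.01 (−16.32 to −8.52, LacZ/LacZ) and −9.68 (−12.74 to −7.81, LacZ/+). Of 11 measurable basement membrane genes, 10 were lower and 0 higher, with medians of −3.95 (LacZ/LacZ) and −3.33 (LacZ/+). Over all genes measured in this contrast 12.2% were lower and 24.6% higher. Pdgfra, a receptor that marks many fibroblasts, had log2 ratios of −4.91 (LacZ/LacZ) and −4.55 (LacZ/+).

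The carriers used by the 2 classes differed gene by gene. Slc6a13, a GABA and taurine transporter of leptomeningeal fibroblasts, had 0 UMIs in border cells of both libraries, against 269 UMIs (LacZ/LacZ) and 228 UMIs (LacZ/+) in fibroblast-like barcodes. Slc7a11, the cystine exchanger, had 1 UMI in LacZ/LacZ border cells and 26.4 CPM in LacZ/+ border cells, against 3087 CPM (LacZ/LacZ) and 3533 CPM (LacZ/+) in fibroblast-like barcodes. In the other direction, Slc4a10 had 0 UMIs in fibroblast-like barcodes of both libraries and was at least 284-fold (LacZ/LacZ) and at least 254-fold (LacZ/+) higher in border cells. Atp1b1, a subunit of the sodium pump, had 1184 CPM in LacZ/LacZ and 1471 CPM in LacZ/+ border cells, against 1 UMI in the fibroblast-like barcodes of each library. Its log2 ratios were 8.03 (5.55 to 13.33, LacZ/LacZ) and 7.93 (5.45 to 13.23, LacZ/+). Of 15 measurable solute carriers, 11 were higher in border cells and 4 lower, beside 24.6% and 12.2% over all genes measured in this contrast. Slit2, a guidance ligand of Robo receptors, also had 0 UMIs in fibroblast-like barcodes. At the same floor it was 85.5-fold (LacZ/LacZ) and 86.4-fold (LacZ/+) higher, with log2 intervals down to 4.87 (LacZ/LacZ) and 4.88 (LacZ/+).

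A large share of border cells carried transcripts of MHC class II, the proteins that present peptides to CD4+ T cells and are usual on macrophages, dendritic cells and B cells. At least 3 UMIs of Cd74, H2-Aa, H2-Ab1 and H2-Eb1 together were found in 44 of 84 LacZ/LacZ cells (52.4%, 41.2 to 63.4) and 61 of 95 LacZ/+ cells (64.2%, 53.7 to 73.8). In endothelial-like barcodes the counts were 0 of 303 (LacZ/LacZ), with an exact upper limit of 1.21%, and 1 of 530 (LacZ/+, 0.189%). Thinned to 2000 UMIs, 21 of 83 LacZ/LacZ cells (25.3%, 16.4 to 36.04) and 28 of 95 LacZ/+ cells (29.5%, 20.6 to 39.7) still held 3 or more. Cd74, the invariant chain, had 965 UMIs in LacZ/LacZ border cells (700.4 CPM) and 844 UMIs in LacZ/+ border cells (572 CPM), against 10 UMIs (LacZ/LacZ) and 14 UMIs (LacZ/+) in all other kept barcodes. Fibroblast-like barcodes held 0 UMIs of the 4 genes in either library. These genes came up through the contrast with the other barcodes and are described, not tested.

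The MHC class II transcripts were spread unevenly, and leukocyte genes were nearly absent beside them. Single cells held up to 385 UMIs (median 5) of the 4 genes in the LacZ/LacZ library and up to 129 UMIs (median 7) in the LacZ/+ library. The highest 9 LacZ/LacZ cells held 61.6% of the UMIs and the highest 10 LacZ/+ cells 51.4%, while 22 LacZ/LacZ and 23 LacZ/+ cells held none. All 4 genes were found together in 24 LacZ/LacZ and 36 LacZ/+ cells. Ptprc, the pan-leukocyte gene, Itgax, Mrc1 and Cd163 had 0 UMIs in the border cells of both libraries. Over 12 leukocyte genes, cells with 3 or more MHC class II UMIs held 2 UMIs in the LacZ/LacZ library and 16 in the LacZ/+ library. Cells with fewer held 29 UMIs (LacZ/LacZ), 24 of them in 1 cell, and 9 UMIs (LacZ/+). Median depth was 16848 UMIs in LacZ/LacZ cells with 3 or more and 13474 in those with fewer, and 14744 and 13545 UMIs in the same order in LacZ/+ cells.

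Both promoters taken from the RefSeq table carry the Y box of MHC class II genes, the element bound by NF-Y, and are shown because these genes were detected together in many of the cells. The motif CTGATTGG is in capitals and was chosen after the sequences were seen. Its first base lies 51 bases before the start of H2-Aa (window chr17:34287824-34288073, minus strand) and 62 bases before the start of H2-Eb1 (window chr17:34305617-34305866, plus strand; both RefSeq, GRCm38.p6).
H2-Aa promoter: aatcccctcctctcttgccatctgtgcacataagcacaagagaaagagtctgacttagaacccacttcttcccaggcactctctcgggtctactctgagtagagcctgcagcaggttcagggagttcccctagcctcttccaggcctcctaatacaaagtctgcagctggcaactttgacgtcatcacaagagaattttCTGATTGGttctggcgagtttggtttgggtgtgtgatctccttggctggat
H2-Eb1 promoter: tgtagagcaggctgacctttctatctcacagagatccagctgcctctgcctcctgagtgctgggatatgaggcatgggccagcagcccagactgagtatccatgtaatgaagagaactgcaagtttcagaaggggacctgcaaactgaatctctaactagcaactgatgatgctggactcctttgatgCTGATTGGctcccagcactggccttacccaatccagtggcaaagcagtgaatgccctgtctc
Searched on both strands, CTGATTGG occurred in 1258 of 32851 promoter windows of this length (3.83%). H2-Aa had 282 CPM in LacZ/LacZ and 278 CPM in LacZ/+ border cells, and UMIs in 48.8% (LacZ/LacZ) and 61.1% (LacZ/+) of them, against 0.330% (LacZ/LacZ) and 0.377% (LacZ/+) of endothelial-like barcodes. After thinning, H2-Aa was found in 26.5% (LacZ/LacZ) and 29.5% (LacZ/+) of border cells. H2-Eb1 had 165 CPM (LacZ/LacZ) and 121 CPM (LacZ/+), with UMIs in 42.9% (LacZ/LacZ) and 46.3% (LacZ/+).

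**Figure D3:**
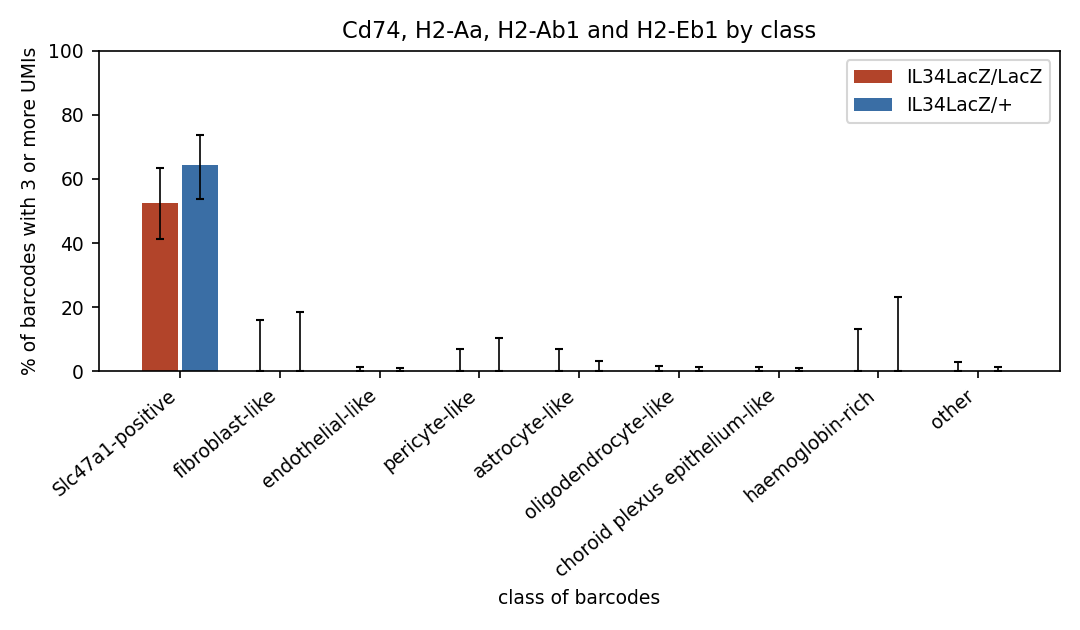
Share of barcodes, in percent, with 3 or more UMIs of Cd74, H2-Aa, H2-Ab1 and H2-Eb1 together in each barcode class, with exact 95% counting intervals and the IL34LacZ/LacZ bar left of the IL34LacZ/+ bar. Border cells stand at 52.4% and 64.2%, and no other class exceeds 1 barcode.

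The border cells were not uniform. Prg4, Col25a1, Kcnb2, Bmp4, Fn1, Ptn, Gja1, Bche and F3 (set 1) and Sfrp4, Itih5, Dcn, Col12a1, Col14a1, Mfap4, Igf1, Dclk1 and Bmper (set 2) varied in opposite directions between cells. The 9 genes of each set were chosen after seeing these cells, so the split is a range described on its own genes. Set 1 gave 75% or more of the 2 sets' UMIs in 55 of 84 LacZ/LacZ cells (65.5%, 54.3 to 75.5) and 72 of 95 LacZ/+ cells (75.8%, 65.9 to 84.0). It gave under 25% in 13 LacZ/LacZ cells (15.5%, 8.51 to 25.01) and 5 LacZ/+ cells (5.26%, 1.73 to 11.9). The rest lay between, and 10 LacZ/LacZ and 8 LacZ/+ cells lay within 5 percentage points of the 75% limit. After thinning, the Spearman correlation of the 2 sums across cells was −0.60 (n = 83, LacZ/LacZ) and −0.26 (n = 95, LacZ/+), where sums from 1 cell share its depth.

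Genes outside the 2 sets differed between the ends of this range. Ccn3 had 61.3 CPM (LacZ/LacZ) and 87.2 CPM (LacZ/+) in the set 2 cells, against 3035 CPM (LacZ/LacZ) and 3300.3 CPM (LacZ/+) in the set 1 cells. Igfbp5 had 20243 CPM (LacZ/LacZ) and 13594 CPM (LacZ/+) in the set 2 cells, against 3194 CPM (LacZ/LacZ) and 2678 CPM (LacZ/+) in the set 1 cells. Cdh1 had 0 UMIs in the set 2 cells of both libraries, against 213 CPM (LacZ/LacZ) and 121 CPM (LacZ/+) in the set 1 cells. Cd74 was likewise lower in set 2 cells, at 226 CPM (LacZ/LacZ) and 87.2 CPM (LacZ/+), against 928 CPM (LacZ/LacZ) and 643 CPM (LacZ/+). The set 2 levels came from 48 UMIs in 2 of 13 LacZ/LacZ cells and 6 UMIs in 1 of 5 LacZ/+ cells. In summed CPM Slc47a1 was higher in set 2 cells of both libraries, and Foxd1 was found at both ends. Slc47a1 and Ccn3 helped choose the cells, so a cell low in Ccn3 had to reach the threshold through the other rule genes. The part of the rule in their levels at each end was not tested. Across thinned cells, the Spearman correlation of Slc47a1 with the set 2 sum was 0.073 (LacZ/LacZ) and 0.27 (LacZ/+). Slc47a1 had 2373 CPM (LacZ/LacZ) and 3184 CPM (LacZ/+) in set 2 cells, against 1902 CPM (LacZ/LacZ) and 2043 CPM (LacZ/+) in set 1 cells. Foxd1 had 759.5 CPM (LacZ/LacZ) and 974 CPM (LacZ/+), against 736 CPM (LacZ/LacZ) and 808 CPM (LacZ/+). Median depth was 14591 UMIs (LacZ/LacZ) and 14156 UMIs (LacZ/+) in set 2 cells, against 15900.0 UMIs (LacZ/LacZ) and 14388.5 UMIs (LacZ/+) in set 1 cells.

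**Figure D4:**
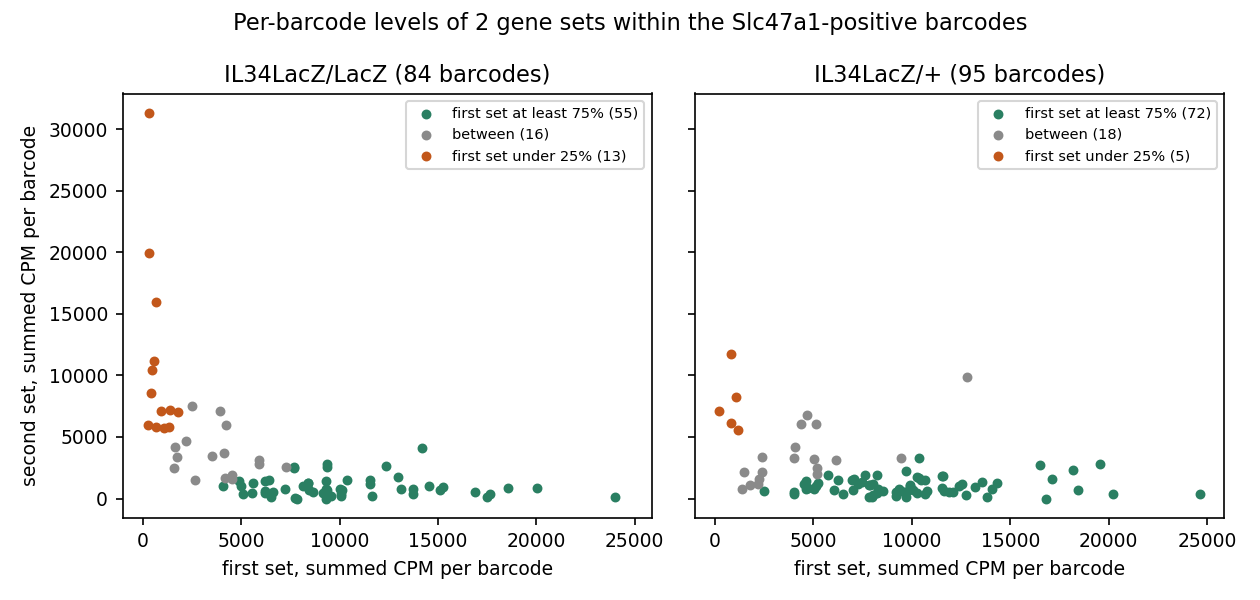
Summed CPM of set 1 on the horizontal axis and of set 2 on the vertical axis, 1 point per border cell, with the IL34LacZ/LacZ panel left of the IL34LacZ/+ panel. Green points are the 55 and 72 cells with 75% or more set 1 UMIs, orange points the 13 and 5 cells with under 25%, and grey points lie between.

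Between genotypes most genes of the border cells were level. Of 5278 genes measured, 41 (0.777%) were over 2-fold higher and 36 (0.682%) over 2-fold lower in LacZ/LacZ cells than in LacZ/+ cells, and 92.5% lay within 1.5-fold. The median log2 ratio of all measured genes was −0.085. The split of higher against lower genes depended on scaling, with 55 higher and 24 lower under median-of-ratios scaling and 50 higher and 27 lower when mitochondrial, haemoglobin and ribosomal protein genes were left out of the totals. Slc47a1 had a log2 ratio of −0.026 (−0.10 to 0.048), Bnc2 −0.16 and Ccn3 −0.35, with Slc26a7 at −0.34 and Igfbp6 at 0.35.

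Penk was the gene with the most UMIs among the 12 lowest in LacZ/LacZ border cells. It had 384 UMIs in 43 LacZ/LacZ cells (279 CPM) and 1036 UMIs in 57 LacZ/+ cells (702 CPM), a log2 ratio of −1.33 (−1.51 to −1.16). After thinning it was found in 31.3% (LacZ/LacZ) and 42.1% (LacZ/+) of border cells, against 0.375% (LacZ/LacZ) and 0.417% (LacZ/+) of endothelial-like barcodes. Penk UMIs numbered 2 (LacZ/LacZ) and 32 (LacZ/+) in endothelial-like barcodes, a log2 ratio of −3.27 (−6.38 to −1.30) in the same direction. They lay in 2 of 303 (0.660%, LacZ/LacZ) and 4 of 530 (0.755%, LacZ/+) barcodes, so this ratio rests on few barcodes. Penk lies at chr4:4133531-4138819, minus strand. The highest cell held 7.29% (LacZ/LacZ) and 12.8% (LacZ/+) of its UMIs, and the ratio was −1.23 once the top 2% of cells by Penk UMIs were left out and −1.28 within set 1 cells. Hspa1b, an inducible heat shock protein, had 13.1 CPM over all LacZ/LacZ and 101 CPM over all LacZ/+ border cells (log2 −2.95, −3.74 to −2.24). Its UMIs lay in 12 LacZ/LacZ and 25 LacZ/+ cells. Usp13, a ubiquitin protease, had UMIs in 17 LacZ/LacZ and 44 LacZ/+ cells (log2 −1.54), and Ppp1r10, a regulator of protein phosphatase 1, in 26 LacZ/LacZ and 50 LacZ/+ cells (log2 −1.42). Coch, the cochlin gene, had a log2 ratio of −2.83, but 1 cell held 53.8% (LacZ/LacZ) and 76.8% (LacZ/+) of its UMIs, and the ratio was 1.46 within set 1 cells.

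Cdkn1a, which encodes the cell cycle inhibitor p21, was among the 12 highest and was spread over many cells. It had 222 UMIs in 48 LacZ/LacZ cells (161 CPM) and 69 UMIs in 28 LacZ/+ cells (46.7 CPM), a log2 ratio of 1.79 (1.39 to 2.20), and 2.15 without its top 2% of cells. In endothelial-like barcodes its ratio was 0.11, and its UMIs were found in 20.1% (LacZ/LacZ) and 19.2% (LacZ/+) of them. Thinned to 2000 UMIs, Cdkn1a was found in 20.5% (LacZ/LacZ) and 5.26% (LacZ/+) of border cells, against 8.99% (LacZ/LacZ) and 8.96% (LacZ/+) of endothelial-like barcodes, so its share in LacZ/+ border cells was not above that of this other class. S100a6, a calcium-binding protein, had 147 CPM over all LacZ/LacZ and 35.2 CPM over all LacZ/+ border cells (log2 2.06, 1.61 to 2.53). Its UMIs lay in 24 LacZ/LacZ and 11 LacZ/+ cells. Cacna2d3, a calcium channel subunit, had 254 CPM over all LacZ/LacZ and 63.7 CPM over all LacZ/+ border cells (log2 1.996, 1.66 to 2.34). Its UMIs lay in 34 LacZ/LacZ and 22 LacZ/+ cells. Other high ratios rested on single cells. For Rsad2, an interferon-induced gene, 1 cell held 88.6% of 132 LacZ/LacZ UMIs, and its log2 ratio of 4.14 was 1.10 without the top 2% of cells. For Myoc, the myocilin gene, 1 cell held 52.1% (LacZ/LacZ) and 66.3% (LacZ/+) of UMIs, and the log2 ratio of 2.21 was −0.061 without the top 2%.

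Some of these ratios differed between all border cells and set 1 cells. LacZ/LacZ held 13 set 2 cells and LacZ/+ held 5, and Sfrp4, a set 2 gene, had a log2 ratio of 1.36 (1.14 to 1.58) over all border cells and −0.085 within set 1 cells. Dcn, also of set 2, had 1.05 over all and 0.33 within set 1 cells. Set 1 cells were chosen for a low share of set 2 UMIs, so low Sfrp4 and Dcn levels there were in part fixed in advance. The part of the cells' make-up in these ratios was not tested. Meis2, a homeobox factor, had 392 CPM in set 2 cells of LacZ/LacZ, from 9 of 13 cells, and 291 CPM in those of LacZ/+, from 20 UMIs in 1 of 5 cells. Its log2 ratio was 2.03 over all and 3.44 within set 1 cells, where 5 LacZ/LacZ and 3 LacZ/+ cells held its UMIs.

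**Figure D5:**
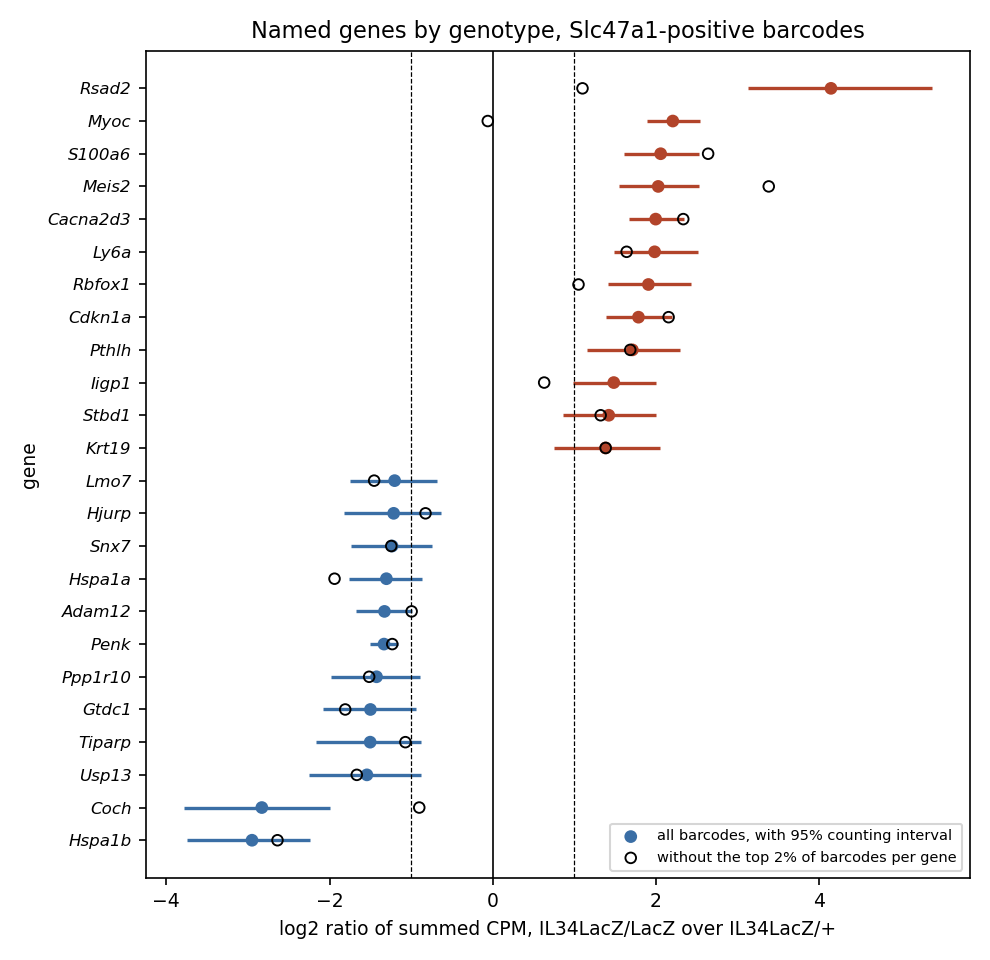
Log2 ratio of IL34LacZ/LacZ over IL34LacZ/+ border cells for the 12 genes ranked highest and the 12 ranked lowest, with exact 95% counting intervals as bars, filled points for all border cells and dashed lines at 2-fold. Open circles leave out, gene by gene, the top 2% of cells, and those of Rsad2 (1.10) and Myoc (−0.061) lie far from their full values of 4.14 and 2.21.

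Gene lists gave the same comparison by function. Of 17 measurable immediate early genes, fast response genes of stimulated cells, 0 were over 2-fold higher and 2 lower in LacZ/LacZ border cells, with a median of −0.37, beside 0.777% higher, 0.682% lower and a median of −0.085 over all measured genes. The 2 were Egr1 (183 CPM LacZ/LacZ, 375 CPM LacZ/+, log2 −1.03) and Fosb (149 CPM LacZ/LacZ, 320 CPM LacZ/+, log2 −1.10), and 15 of 17 lay below 0, as did 62.6% of all measured genes. Egr1 UMIs were found in 39.3% (LacZ/LacZ) and 48.4% (LacZ/+) of cells, and Fosb UMIs in 42.9% (LacZ/LacZ) and 45.3% (LacZ/+). After thinning, each was found in 21.7% (LacZ/LacZ) and 25.3% (LacZ/+), so the shares of cells differed less than the summed levels. Of 14 heat shock genes, 0 were higher and 3 lower, Hspa1a, Hspa1b and Dnajb1, with a median of −0.21. Hspa5, the chaperone of the endoplasmic reticulum, was 0.71 with 1071 CPM in LacZ/LacZ and 652 CPM in LacZ/+ cells. Of 20 interferon response genes, 2 were higher and 0 lower, with a median of 0.31, and 16 lay above 0, as did 37.4% of all measured genes. Ifit3 had 133 CPM (LacZ/LacZ) and 54.9 CPM (LacZ/+), with 44.3% (LacZ/LacZ) and 38.3% (LacZ/+) of its UMIs in 1 cell.

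Haemoglobin UMIs moved with the genotype labels through few cells. All 4 measurable erythrocyte genes were over 2-fold higher in LacZ/LacZ border cells, beside 0.777% of all measured genes. Hbb-bs had 5576 CPM in LacZ/LacZ and 673 CPM in LacZ/+ cells. A single LacZ/LacZ cell held 66.8% of its Hbb-bs UMIs, and the log2 ratio of 3.05 was 0.092 without the top 2% of cells. The median haemoglobin share per cell was 0.118% (LacZ/LacZ) and 0.115% (LacZ/+). Neuron markers summed to 142 CPM (LacZ/LacZ) and 16.9 CPM (LacZ/+). The deepest LacZ/LacZ cell, with 34615 UMIs, held 98.4% of Erbb4, 93.2% of Nkain2 and 97.9% of Pex5l UMIs, 3 genes over 10 times higher in another class of barcodes. Beyond the ratios without the top 2% of cells, the part of these cells in the genotype ratios was not tested.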

How the data were processed

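The deposited files hold raw UMI counts per gene and barcode for 2 libraries, 25906 features each, and per the file headers they were written by Cell Ranger, version 7.1.0. The submitters' processing notes name the mm10 build, GRCm38.p6. The authors' files carry no cell annotation, and whether doublets or free RNA were removed before deposit is not stated. The border cells and all 27 gene lists were chosen with earlier results of these data known, some lists from a previous session on the same files. Counts were summed per library and class and scaled to CPM. Ratios carry exact conditional binomial intervals, levels exact Poisson ones, and shares Clopper-Pearson ones (scipy 1.17.1, numpy 2.4.6, pandas 2.3.3, python 3.11.15), which cover counting error only. Genes needed 100 UMIs over both sides and 20 CPM on one side. No p-value was computed, since each genotype has 1 library.

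Endothelial-like barcodes held the 6 endothelial genes at 0.5% or more of UMIs. Doublets were not removed. Scrublet in scanpy 1.11.5 marked 0.681% of kept IL34LacZ/LacZ and 1.32% of kept IL34LacZ/+ barcodes and 0 border cells. The unmarked IL34LacZ/LacZ border cells include 1 with 28.9% haemoglobin UMIs and 1 with 184 of 187 Erbb4 UMIs. Whether such barcodes are mixed was not tested. Shares of cells were also computed after thinning to 2000 UMIs. Genes were named as the 5 markers, the leading members of the lists, the 25 highest over the other barcodes, the 15 highest and 15 lowest against fibroblast-like barcodes and the 12 highest and 12 lowest between genotypes. Haemoglobin, sex-linked, mitochondrial and ribosomal protein genes, and gene models without a name, stayed out of those rankings, and genes over 10 times higher in another class were set apart from the last. Code was tested on simulated data. Alternatives covered the selection limits, scaling, filters, thinning and removal of the highest cells. Some genes that these rules name are not reported here.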

Additional observations from a re-analysis of the deposited data

Results flagged for a closer look

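Meis2 had a log2 ratio of IL34LacZ/LacZ over IL34LacZ/+ of 2.03 in border cells (1.55 to 2.53) and of -2.62 in endothelial-like barcodes (-4.30 to -1.30), opposite directions in the 2 classes. The difference between the classes was not tested. Rbfox1, a neuronal splicing regulator, showed the same kind of contrast, with 1.91 in border cells (1.42 to 2.42) and -2.21 in endothelial-like barcodes (-2.66 to -1.79), also not tested, and 1 cell held 56.5% of its IL34LacZ/LacZ UMIs in border cells. The contrast is not particular to these genes. Among genes over 10 times higher in another class, Erbb4 had 4.32 in border cells and -2.76 in endothelial-like barcodes. Nkain2 had 3.50 and -2.09 in the same order, while Cp was lower in both, at -1.69 and -0.46.

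Outside the kept barcodes, 17 barcodes in the IL34LacZ/LacZ library and 16 in the IL34LacZ/+ library had 8 or more UMIs of Slc47a1, Slc26a7, Igfbp6 and Ccn3. All of them exceeded 15% mitochondrial UMIs, with medians of 28.4% (IL34LacZ/LacZ) and 21.9% (IL34LacZ/+), and they held 140 (IL34LacZ/LacZ) and 177 (IL34LacZ/+) Slc47a1 UMIs.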

How the results depend on the processing

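No paired analysis was possible because each genotype has 1 library, and for the same reason no replicate could be left out. The IL34LacZ/LacZ share of border cells was 5.28% with at most 10% mitochondrial UMIs and 5.29% with no such limit, against 7.15%; the cause was not tested. Thinning every barcode to 2000 UMIs, which leaves fewer genes above the filter, gave 441 genes higher than in the other barcodes, against 1212, and 65 higher and 6 lower than in fibroblast-like barcodes of the 1% limit, against 365 and 150. It left 5 higher and 0 lower between genotypes, against 41 and 36. A filter of 30 UMIs with no CPM limit, which tests more genes, gave 2389 lower than in the other barcodes (1362), 1035 lower than in fibroblast-like barcodes, and 192 higher and 203 lower between genotypes. With at most 10% mitochondrial UMIs 76 genes were lower than in fibroblast-like barcodes. With the limit of 0.2%, chosen after seeing the data, those counts were 774 and 385. With the rule at 4 UMIs, 71 genes were lower in IL34LacZ/LacZ than in IL34LacZ/+ border cells, and within set 1 cells, also chosen after seeing the data, 18 were. Directions turned for Myoc (2.21; -0.061 without its top 2% of cells and -0.98 within set 1 cells), Pthlh (1.71; -0.069 within set 1 cells) and Coch (-2.83; 1.46 within set 1 cells). Of 312 values for the 24 genes named between genotypes, 272 stayed within counting error, 36 moved in the same direction and 4 turned. Of 250 values for the 25 genes named over the other barcodes, 223 stayed within it, 27 moved and 0 turned. Depth limits genes under 100 UMIs, and a class at 0 is read only as below 3 UMIs.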

Other observations

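Further gene groups were measured against the other kept barcodes, as a description, beside 14.8% higher and 16.7% lower over all measured genes. Of 13 measurable detoxification genes, 5 were higher and 0 lower in border cells. Cyp2f2, a cytochrome P450, had 78.4 CPM (IL34LacZ/LacZ) and 71.1 CPM (IL34LacZ/+) over all border cells. Its UMIs were found in 32.1% of IL34LacZ/LacZ and 21.1% of IL34LacZ/+ cells (after thinning, 10.8% in IL34LacZ/LacZ and 8.42% in IL34LacZ/+). Of 27 measurable ion channel genes, 7 were higher and 17 lower. Piezo2, a mechanosensitive channel, had 226 CPM in IL34LacZ/LacZ and 217 CPM in IL34LacZ/+ border cells, with log2 ratios of 3.77 (IL34LacZ/LacZ) and 4.29 (IL34LacZ/+). Of 28 measurable guidance and adhesion genes, 8 were higher and 10 lower. Of 11 genes of metal and iron handling, 1 was higher and 6 were lower. Car13, a carbonic anhydrase, had 271 CPM (IL34LacZ/LacZ) and 335 CPM (IL34LacZ/+), with log2 ratios of 6.05 (IL34LacZ/LacZ) and 6.42 (IL34LacZ/+).

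Csf1, the other ligand of CSF1R, had 47.9 CPM in IL34LacZ/LacZ and 42.7 CPM in IL34LacZ/+ border cells. Of 10 measurable macrophage ligands and chemokines, 2 were higher and 2 lower than in the other barcodes, shares near the 14.8% and 16.7% over all measured genes. Cxcl16, a membrane-bound chemokine, had 101 CPM (IL34LacZ/LacZ) and 90.8 CPM (IL34LacZ/+). Cxcl10, an interferon-induced chemokine, had 140 UMIs in the IL34LacZ/LacZ and 63 UMIs in the IL34LacZ/+ border cells, all of them in 1 cell in each library.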
